A study of Daphnia magna with 36 samples.

Results

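Zinc sulphate (ZnSO4), a soluble salt that releases zinc ions in water, was given to Daphnia magna at a higher and a lower level, and the two-colour arrays of both levels are compared here. The members were chosen by array title: 12 of the 36 arrays in the study carry RNA of ZnSO4-exposed animals, 6 from the LC25 at 0.91 mg/L and 6 from 1/10 of the LC50 at 0.13 mg/L. An LC value is the concentration lethal to the stated percentage of animals, and the higher dose was 7 times the lower. The 6 LC25 arrays came from 5 numbered exposures and the 6 lower-level arrays from 3, so 5 exposures were compared with 3 after arrays of one exposure had been averaged. The series' design text states 3 exposures per condition, whereas the titles number 5 at the LC25.

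All groups consisted of adult females 10 days old, exposed for 24 h at 25 °C, and every RNA sample was a pool of 16 whole animals. Each array set exposed RNA in one dye and RNA of unexposed animals kept in the laboratory in the other. Whether one control pool served several arrays is not stated. The other 24 arrays came from ZnO nanoparticles (ZnO NP, 2.2 mg/L at 1/10 LC50 and 9.0 mg/L at the LC25) and silica nanoparticles (SiO2 NP, 1.4 and 5.1 mg/L). They were used to estimate the spread of each probe and the dye term, to filter probes and to see where ZnSO4 differed. The nanoparticle groups followed the same protocol, also against unexposed animals. RNA of whole animals does not separate fewer cells of a type from less RNA per cell, and no marker could be checked because probes carry no gene names.

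Zinc is an essential metal that many enzymes and transcription factors bind, and animals hold free zinc ions low through membrane transporters and metallothioneins, small cysteine-rich proteins that bind metals. In freshwater crustaceans an excess of dissolved zinc is known to interfere with the uptake of calcium, which the animals need for each new carapace. A pair of levels of the salt alone asks whether the response to zinc ions near lethal concentrations differs from that at a lower dose.

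The deposited values are one log ratio per probe and array, read as log2. No label or header says whether exposed RNA or control RNA is the numerator, so "higher at the LC25" below means a more positive ratio there and is not a statement that transcripts rose. Probes are identified by plate position alone, with no gene assigned, so gene groups cannot be described. Identifiers fall into a series of 7 plates beginning with A (2688 probes) and a series of 52 plates beginning with P (4992 probes); what the letters stand for is not given. Probes valued per ZnSO4 array ranged from 58.4% to 90.5% of 7680. Spot brightness was not used here, so its part in the precision cannot be stated. The number of arrays, missing values and the dye imbalance described below also limit the precision.

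Dye and level were not balanced. All 3 lower-level exposures were dye-swapped pairs, while at the LC25 only exposure 4 was a pair, exposures 1 to 3 were single arrays with exposed RNA in Cy5 and exposure 5 was a single array with exposed RNA in Cy3. With the values as deposited, LC25 exposure 3 differed from most of its group. Its array correlated across probes at r = -0.484 with that of exposure 5 and at -0.291 with that of exposure 2, and at -0.154 with that of exposure 1, but at 0.191 and 0.106 with the arrays of exposure 4. Exposures 2 and 5 correlated at 0.476. The coefficients -0.484, 0.476 and 0.191 each set a Cy5 array against a Cy3 array. If the values were Cy5 over Cy3 throughout, these would change sign. Those of exposure 3 with exposures 1 and 2, all on Cy5 arrays, would not. The main values are therefore also given without exposure 3, a choice made after seeing these correlations for the non-overlap counts, the spread and the series offset. Leaving out an exposure because it differs narrows the spread of its group, so smaller p-values without it are not added support. Within the LC25 group the 14 pairs of arrays from different exposures had a median r of 0.150, and within the lower level 12 such pairs had a median of -0.0645. Between levels the median of 36 pairs was -0.0112. The 4 dye-swapped pairs of arrays from one exposure had a median of 0.112. The pair of LC25 exposure 4 correlated at 0.4925. Those of lower-level exposures 1, 2 and 3 correlated at -0.120, 0.142 and 0.0821, so repeat arrays of that level agreed little. Read as Cy5 over Cy3, the coefficients of these pairs would also change sign. These coefficients share arrays and describe probes, which are not independent, so they carry no p-value.

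No single probe separated the 2 levels at the adjusted threshold, but many probes shifted together by series. With limma's moderated test over all probes, 0 of 5495 (0%) had a Benjamini-Hochberg adjusted p below 0.05, and the lowest was 0.0561. At an unadjusted p below 0.05 stood 565 probes, 10.3% of those tested, against the 275 that p-values spread evenly from 0 to 1 would give. Of these, 258 (4.70% of probes tested) were higher and 307 (5.59%) lower at the LC25. The higher ones were fewer but larger: 54 probes had a fitted difference above 1 on the log2 scale, a 2-fold difference of ratios, and 1, a P-series probe, had a difference below -1. Fitted differences ran from -1.11 to 2.21, with a median 95% half-width of 0.42 per probe, not adjusted for the number of probes. Even the difference of 2.21 did not pass the adjusted threshold, so the half-width understates what that threshold required. Without LC25 exposure 3, 11 probes passed the adjusted threshold, 10 of them higher and 9 of them in the A series, and 1050 had an unadjusted p below 0.05.

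**Figure D1:**
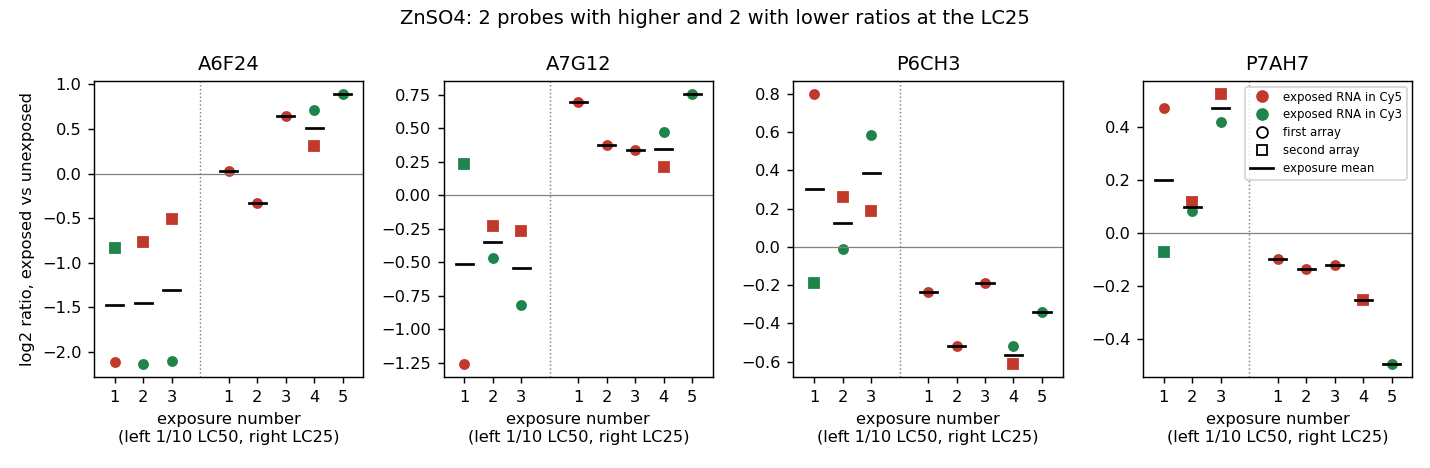
Log2 ratios of exposed against unexposed animals (y axis) for A6F24, A7G12, P6CH3 and P7AH7 in each ZnSO4 exposure (x axis; 1/10 LC50 to the left of the dotted line, LC25 to the right). Each point is 1 array, coloured by the dye of the exposed RNA, circles for first and squares for second arrays, and black lines are exposure means. Exposure means of the levels do not overlap for any of the 4 probes.

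A6F24 had the smallest p among all probes. At 1/10 LC50 its log2 ratios on the arrays of exposure 1 were -2.11 and -0.83, those of exposure 2 were -2.13 and -0.76 and those of exposure 3 were -2.11 and -0.50. All 6 arrays were thus negative in both dye orientations, and in each pair the first array lay lower than the second. At the LC25 exposures 1 to 5 averaged 0.02, -0.33, 0.65, 0.51 and 0.89. The lower level averaged -1.41 ± 0.09 (SD, n = 3) and the LC25 0.35 ± 0.49 (SD, n = 5), with no overlap. The fitted difference was 1.81 ± 0.32 (log2 ± SE; 95% interval 1.15 to 2.46; limma adjusted p = 0.0561), a 3.50-fold difference of ratios. In the nanoparticle groups the probe averaged between -0.10 and 0.30. Of the 6 groups, ZnSO4 at 1/10 LC50 lay farthest from 0.

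A7G12 was negative at the lower level and positive at the higher one. Its exposure means were -0.51, -0.35 and -0.54 at 1/10 LC50, and 0.70, 0.37, 0.33, 0.34 and 0.75 at the LC25. All 5 LC25 exposures lay above all 3 others, although the second array of lower-level exposure 1 read 0.23 where the first read -1.26. Its group means were -0.47 ± 0.10 (SD, n = 3) and 0.50 ± 0.21 (SD, n = 5). The fitted difference was 0.98 ± 0.19 (log2 ± SE; 95% interval 0.59 to 1.37; limma adjusted p = 0.0762), a 1.97-fold difference of ratios.

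On the other side, P6CH3 was positive at the lower level with 0.30, 0.12 and 0.39, and negative at the LC25 with -0.23, -0.52, -0.19, -0.56 and -0.34. On single arrays, the second of lower-level exposure 1 (-0.19) and the first of exposure 2 (-0.01) were below 0. The exposure means did not overlap, and averaged 0.27 ± 0.13 (SD, n = 3) and -0.37 ± 0.17 (SD, n = 5). The fitted difference was -0.67 ± 0.15 (log2 ± SE; 95% interval -0.97 to -0.36; limma adjusted p = 0.130). P7AH7 followed the same course at smaller size. It had 0.20, 0.10 and 0.47 at 1/10 LC50 and -0.10, -0.14, -0.12, -0.25 and -0.49 at the LC25, where exposure 4 was valued only on the array with exposed RNA in Cy5. Its fitted difference was -0.55 ± 0.13 (log2 ± SE; 95% interval -0.82 to -0.28; limma adjusted p = 0.176). None of the 4 probes passed the adjusted threshold in the fit over all groups.

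Among arrays with exposed RNA in Cy5 alone, which share a dye orientation and so do not depend on whether swapped arrays were turned, LC25 exposures 1 to 4 were set against all 3 lower-level exposures. A6F24 then differed by 1.29, A7G12 by 0.99, P6CH3 by -0.80 and P7AH7 by -0.52, with limma adjusted p of 0.805 for each. All 4 kept their direction at that smaller n. In that fit 280 of 5145 probes had an unadjusted p below 0.05, close to what p-values spread evenly from 0 to 1 would give. The adjusted threshold was passed by 0 probes. The excess at the unadjusted threshold in the fit over all groups was thus mostly absent there. If the deposited values were Cy5 over Cy3 throughout, A6F24 would turn to -0.53 and the other 3 would shrink without changing sign.

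First and second arrays of the lower level differed. With the first array of each exposure alone, 16 probes passed the adjusted threshold in limma, 15 higher and 14 in the A series, with a lowest adjusted p of 0.000262; A6F24 then differed by 2.54 and A7G12 by 1.45. Why first and second arrays differ was not tested.

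The level difference was split by identifier series, a split made after its pattern had been seen, so it is described without a test. With the values as deposited, A-series probes were mostly higher at the LC25 and P-series probes mostly lower. Of 1256 A-series probes tested, 937 (74.6%) had a positive difference, with a median of 0.17 (quartiles -0.002 and 0.37). Of 4239 P-series probes, 1362 (32.1%) did, with a median of -0.11 (quartiles -0.24 and 0.06). The median over all tested probes was -0.06. Without LC25 exposure 3 the medians were 0.21 and -0.14. With Cy5 arrays alone, which do not depend on the turning of swapped arrays, they were 0.23 and -0.07. On Cy3 arrays of the ZnSO4 groups alone, 2 at the LC25 and 3 at the lower level, they were 0.09 and -0.14. If the values were Cy5 over Cy3, both medians would be positive, at 0.08 and 0.02, and the opposed directions would not be seen.

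The same split ran through the probes at the unadjusted threshold. In the A series 174 probes (13.9%) had an unadjusted p below 0.05, and in the P series 391 (9.22%). Of the former, 162 (12.9% of the A series) were higher at the LC25 and 12 (0.955%) lower, and of the latter 96 (2.26% of the P series) were higher and 295 (6.96%) lower. Of the 54 probes above a difference of 1, 49 were A-series (3.90% of that series) and 5 P-series (0.118%). With the values as deposited, the A series thus held 90.7% of them and 22.9% of probes tested. Without LC25 exposure 3 it held 92 of 106 probes above 1, and with Cy5 arrays alone 11 of 13. On Cy3 arrays of the ZnSO4 groups alone it held 83 of 178, so P-series probes made up the larger part there. Read as Cy5 over Cy3, 1 probe lay above 1 and 0 of these were A-series. The 1 probe below -1 was 0.0236% of the P series. All 6 probes with an adjusted p below 0.1 were A-series and higher at the LC25, with differences from 0.98 to 2.21. The offset was spread over plates: the medians of all 7 A plates lay between 0.11 and 0.21, and those of all 52 P plates between -0.21 and -0.02.

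**Figure D2:**
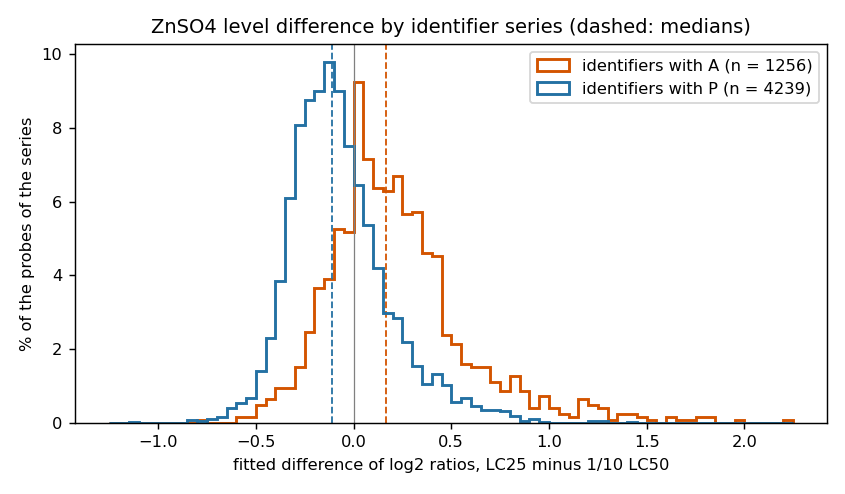
Distribution of the fitted difference of log2 ratios between ZnSO4 levels (x axis, LC25 minus 1/10 LC50) as the percentage of probes of each identifier series (y axis), with dashed medians. The 1256 A-series probes centre at 0.17 with a tail beyond 1, and the 4239 P-series probes centre at -0.11.

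Exposure by exposure, the median ratio of A-series probes minus that of P-series probes was -0.16, -0.02 and -0.06 at 1/10 LC50. At the LC25 it was 0.24, 0.31, -0.15, 0.08 and 0.39. The LC25 was thus higher in 4 of 5 exposures, while exposure 3 fell within the range of the lower level. The means were -0.08 ± 0.07 (SD, n = 3) and 0.17 ± 0.22 (SD, n = 5), or 0.26 ± 0.13 (SD, n = 4) at the LC25 without exposure 3. The offset also moved with the dye: in 11 of the 13 dye-swapped pairs of the study it was higher on the array with exposed RNA in Cy3. Within Cy5 it ran from -0.32 to -0.08 on the 3 lower-level arrays and from -0.15 to 0.31 on the 4 LC25 arrays, which overlapped through exposure 3. Within Cy3 it ran from -0.01 to 0.05 on 3 arrays and from 0.13 to 0.39 on 2, without overlap. The part of the dye in the offset was not tested. A-series probes also had values less often, on 39.5% to 76.7% of spots per ZnSO4 array, and LC25 exposure 3 was valued at 75.3% of them. The part of spot coverage in the offset was not tested.

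The mean offset at the LC25 was positive for the salt and negative for both nanoparticles, while ZnSO4 exposure 3 fell within the nanoparticles' range. The offset lay between -0.29 and -0.06 in the 4 exposures to ZnO NP at the LC25 and between -0.22 and -0.06 in the 4 to SiO2 NP. In the fit, the median level difference of A-series probes was 0.17 for ZnSO4, -0.13 for ZnO NP and -0.09 for SiO2 NP. For P-series probes it was -0.11, 0.02 and 0.04. All 7 A plates had a positive median for ZnSO4, and 0 of 7 did for either particle. The deposited ratios are centred on each array, so they do not show which series moved. Whether centring shifted one series when the other changed was not tested.

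**Figure D3:**
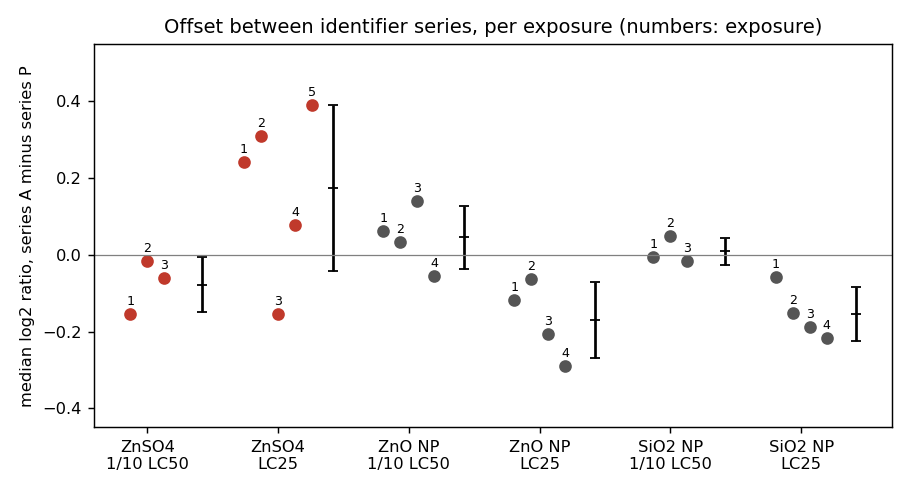
Median log2 ratio of A-series minus P-series probes (y axis) for every exposure of the 6 groups (x axis); points carry the exposure number, bars show mean ± SD over exposures. ZnSO4 exposures 1, 2, 4 and 5 at the LC25 lie between 0.08 and 0.39, above all 3 lower-level exposures, while exposure 3 lies at -0.15.

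Subtracting the median of each plate on every array removed the offset and turned the balance of directions. There were then 346 higher and 125 lower probes at an unadjusted p below 0.05, in place of 258 and 307, and 0 passed the adjusted threshold. Large differences remained mostly A-series after that step, at 39 of the 50 probes above 1. The 54 probes above 1 in the original fit, chosen by their values and so only described, had medians of -0.53, -0.20 and -0.92 in the lower-level exposures and 0.54, 0.60, -0.26, 0.92 and 1.33 at the LC25. The choice of these probes used the 24 nanoparticle arrays only for the spread, the dye term and the probe filter. Over those arrays, pairs of these probes had a median r of 0.296, against 0.0956 for pairs of A-series probes and -0.003 for all tested probes. The probes share arrays and the series offset, so these values are descriptive.

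Complete separation of the levels was counted by direction and by series, without a test. Among 4249 tested probes valued in all 8 exposures, 179 (4.21%) had no overlap, 149 (3.51%) of them lower and 30 (0.706%) higher at the LC25. A random order of 5 against 3 exposures separates completely in a share of 0.0357, both directions together. The 4.21% is near that share, so the count is not read as a level difference. Its parts by direction and series are not read as one either. By series, 143 P-series probes (4.10% of 3488) and 6 A-series probes (0.788% of 761) lay lower without overlap, and 18 A-series (2.37%) and 12 P-series probes (0.344%) lay higher. Without LC25 exposure 3, 770 of 4263 probes (18.1%) had no overlap, 509 lower (497 of them P-series) and 261 higher (125 of them A-series). Fewer exposures separate more readily, in a share of 0.0571 for a random order of 4 against 3, and exposure 3 was left out because it differed. The counts with and without it are thus not on the same footing.

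The overall strength of the response was asked through the width of the ratios, taken per array so that averaged pairs were not favoured, over the 3134 probes valued on all 12 arrays. Per exposure the SD of log2 ratios was 0.375, 0.239 and 0.419 at 1/10 LC50 and 0.439, 0.451, 0.336, 0.428 and 0.505 at the LC25. The groups overlapped through LC25 exposure 3. They averaged 0.344 ± 0.0939 (SD, n = 3) and 0.432 ± 0.0612 (SD, n = 5), a difference of 0.0876 that did not exceed the spread between exposures (exact two-sided permutation test, p = 0.214; 0.321 adjusted over 3 such tests). The smallest p that 5 against 3 exposures allow is 0.0357.

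Ratios beyond 2-fold told the same. They made up 1.88%, 0.367% and 3.24% of probes in the lower-level exposures and 2.90%, 4.53%, 1.66%, 3.61% and 5.71% at the LC25. The means were 1.83% ± 1.44 (SD, n = 3) and 3.68% ± 1.54 (SD, n = 5; exact two-sided permutation test, p = 0.179, adjusted 0.321). Without exposure 3 the LC25 mean was 4.19% ± 1.22 (SD, n = 4; exact p = 0.114, smallest possible 0.0571), and its SD of ratios was 0.456 ± 0.0339 (SD, n = 4; exact p = 0.0571, the smallest possible). When arrays of an exposure were averaged before the SD was taken, which narrows pairs, the difference was 0.167 (exact p = 0.0357).

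**Figure D4:**
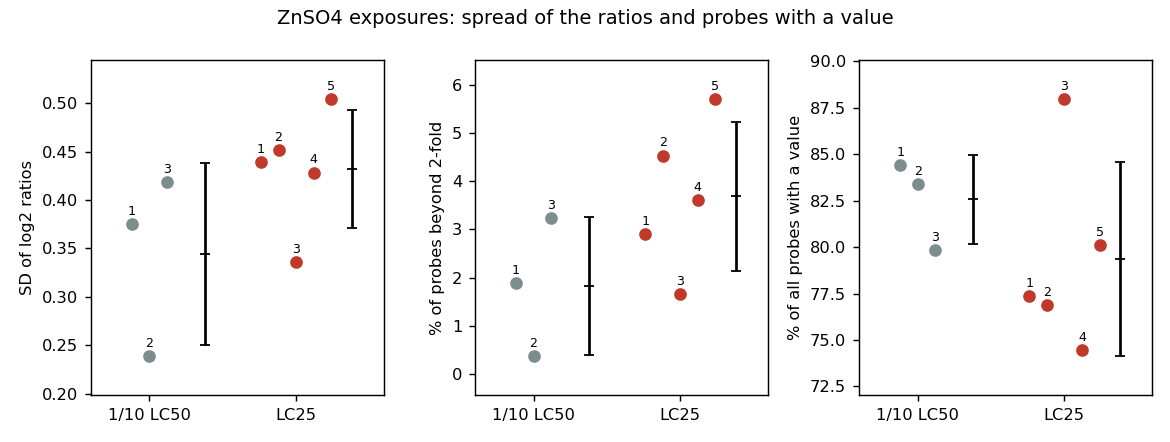
SD of log2 ratios, percentage of probes beyond a 2-fold ratio and percentage of the 7680 probes with a value (y axes) for the ZnSO4 exposures at each level (x axis); points carry the exposure number and bars show mean ± SD. LC25 exposure 3 has the lowest SD of its group, 0.336, and the most probes valued, 88.0%.

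The spread between exposures was described probe by probe. Over the 4249 probes valued in all 8 exposures, the median SD between exposures was 0.32 at the LC25 and 0.17 at 1/10 LC50, and 79.6% of probes had the larger SD at the LC25. Averaged pairs made up the whole lower level, which narrows its SD, and an SD over 3 values has a lower median than one over 5. With first arrays alone the medians were 0.35 and 0.30 over 3206 probes, and 0.32 and 0.30 without LC25 exposure 3. No test was run on these SDs.

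The percentage of probes with a value did not pass the test. The lower level had 82.6% ± 2.39 (SD, n = 3) and the LC25 79.3% ± 5.22 (SD, n = 5; exact two-sided permutation test, p = 0.429, adjusted 0.429). Without LC25 exposure 3 the LC25 mean was 77.2% ± 2.31 (SD, n = 4), and the difference moved from -3.21 to -5.37 percentage points (exact p = 0.114, smallest possible 0.0571). Of the 7680 probes, some were valued at one level alone. There were 74 with a value in all 5 LC25 exposures and in none at 1/10 LC50, all of them A-series. Another 79 had one in all 3 lower-level exposures and in none at the LC25, 22 of them P-series and the rest A-series. A-series probes, which had values less often, were thus the larger part on both sides. How spots came to lack a value is not stated, so these counts do not describe expression.

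The level difference of the salt was then set against that of each particle by an interaction contrast in the same fit. Against ZnO NP, 0 of 5495 probes (0%) passed the adjusted threshold in limma and 471 (8.57%) had an unadjusted p below 0.05. Against SiO2 NP, 0 (0%) passed and 441 (8.03%) had an unadjusted p below 0.05. The median 95% half-widths were 0.59 in both contrasts, so only large differences between toxicants could have been seen. Without LC25 exposure 3, 1 probe passed against ZnO NP and 2 against SiO2 NP.

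The probes with the smallest p on either side against ZnO NP were A7G12 and P7BE6. A7G12 differed between levels by 0.98 for ZnSO4 and by -0.15 for ZnO NP, an interaction of 1.13 ± 0.26 (log2 ± SE; limma adjusted p = 0.571). P7BE6 differed by -0.63 for the salt and by 0.56 for the particle, an interaction of -1.19 ± 0.24 (log2 ± SE; limma adjusted p = 0.277). Its ZnSO4 exposures had 0.48, 0.16 and 0.15 at 1/10 LC50 and -0.76, -0.34, 0.15, -0.31 and -0.55 at the LC25. For this probe exposure 3 stayed close to the lower level, whereas for A6F24 it stood at 0.65, away from that level. Without exposure 3 the P7BE6 interaction was -1.37 (limma adjusted p = 0.00874). That smaller p follows in part from leaving out the exposure that differed, so it is not separate support.

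Against SiO2 NP the smallest p on either side belonged to P1AD11 and P4BB12. P1AD11 differed by 0.35 for ZnSO4 and by -0.74 for SiO2 NP (interaction 1.09 ± 0.26, log2 ± SE; limma adjusted p = 0.605), so the particle contributed the larger part. P4BB12 differed by -0.54 for ZnSO4 and by 0.44 for SiO2 NP (interaction -0.98 ± 0.24, log2 ± SE; limma adjusted p = 0.605). Under ZnSO4 its lower-level mean was 0.10 ± 0.13 (SD, n = 3) and its LC25 mean was -0.43 ± 0.17 (SD, n = 5).

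The number of probes past the adjusted threshold varied with the arrays used and with the model, as the plot of counts under each setting shows. Among the settings run, the largest numbers past the adjusted threshold came with first arrays alone (16), all arrays with the exposure as a random block (12), without the second lower-level arrays (13) and without LC25 exposure 3 (11).

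**Figure D5:**
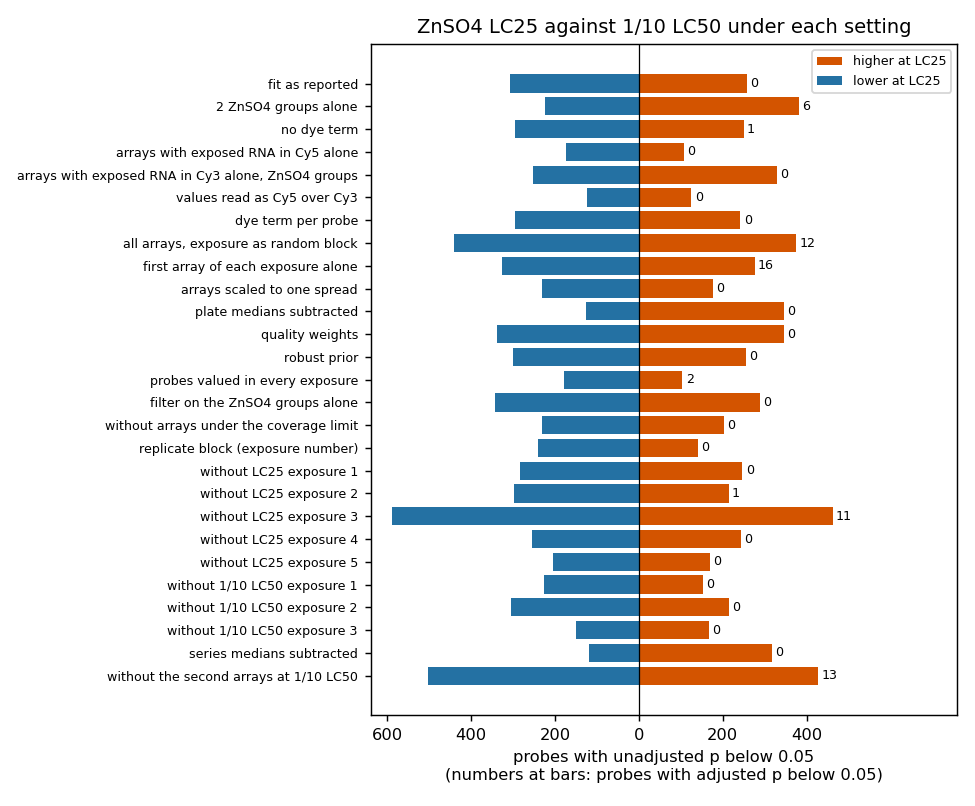
Number of probes with an unadjusted p below 0.05 (x axis; higher at the LC25 to the right, lower to the left) for ZnSO4 LC25 against 1/10 LC50 under each setting (y axis); the number at each bar is the count with an adjusted p below 0.05. Counts range from 249 to 1050, and the adjusted counts from 0 to 16.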

How the data were processed

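RNA of exposed and unexposed Daphnia magna was hybridised on 36 two-colour arrays. The deposited values are log2 ratios by assumption: one signed log ratio per probe and array, with array means within 0.00914 of 0 for ZnSO4, made by the authors with a scanner, background correction, normalization and spot filter not given in the sources used here. They were read as already turned to one direction across dye swaps. Probe identifiers matched 0 entries of the gene table for the organism.

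Arrays of one exposure were averaged (avearrays), giving 23 exposures, and 6 groups were fitted with lmFit and eBayes in limma 3.58.1 (R 4.3.3) with a dye term per exposure. The 5495 probes with values for 2 or more exposures in each group were tested two-sided, with Benjamini-Hochberg adjustment and a threshold of 0.05. The code was tested on simulated data. The comparison and its tests were chosen with earlier results of these data known. Named probes are the 2 on each side with the smallest p, and 1 on each side per interaction. Titles number exposures, but nothing states that they were separate cultures, so p-values measure the spread between these samples. No 2 arrays held identical values. Alternatives changed the samples, dye handling, averaging, scaling, centring, weights and filters.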

Additional observations from a re-analysis of the deposited data

Results flagged for a closer look

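A7G12 (fitted level difference 0.98), P6CH3 (-0.67) and P7AH7 (-0.55) had one sign in all 3 ZnSO4 exposures at 1/10 LC50 and the opposite sign in all 5 at the LC25. None of these differences passed the adjusted threshold in limma, and these probes were named for their small p, which favours such a pattern. By Dixon's criterion, 0 exposures at the LC25 lay far from the others in 11 sets of values (measures and probes); the lower level has too few exposures for it.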

How the results depend on the processing

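The dye imbalance between levels, the unknown log base and numerator, and 5 against 3 exposures limit every value. The count past the adjusted threshold, 0 in the reported fit, was 6 with the ZnSO4 groups alone, 1 without a dye term, 12 with all arrays and a random block, 16 with first arrays alone, 2 with probes valued in every exposure, 13 without the second lower-level arrays (a setting chosen after seeing the data), and 0 to 11 when 1 exposure was left out, with 11 without LC25 exposure 3 and 1 without exposure 2. The count at unadjusted p below 0.05, 565 as reported, was 280 with Cy5 arrays alone, 249 with values read as Cy5 over Cy3, 282 with probes valued in every exposure (fewer were tested), 931 without the second lower-level arrays, and 316 to 1050 when 1 exposure was left out. It fell to 373 without LC25 exposure 5, rose to 1050 without exposure 3, and stood at 316 without lower-level exposure 3. The cause was not tested. Interaction counts, 0 as reported, were 1 against ZnO NP with first arrays alone and 0 to 1 against it, and 0 to 2 against SiO2 NP, when 1 exposure was left out. A6F24 was -0.53 with values read as Cy5 over Cy3 and otherwise positive; the other named differences kept their sign in every setting that gave a value. P7AH7 had none in 2 of them. The SD difference passed only with averaged arrays, at 0.167. Same-numbered exposures deviated at r = -0.0583, -0.0263 and -0.152, within the range of differently numbered ones (-0.279 to 0.258). These values cannot tell whether the numbers pair samples, and the labels do not say. The replicate block gave 381 and 0 probes at the unadjusted and adjusted thresholds. Subtracting series medians, also chosen after seeing the data, gave 318 higher and 118 lower probes.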
